A study of Mus musculus with 2 samples.

Results

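The 31 genes described here encode the mouse glutamate receptors named on a fixed list, with proteins that accompany or anchor them. They comprise 4 AMPA, 7 NMDA and 5 kainate receptor subunits, the delta receptor subunit Grid1, 7 metabotropic receptors, the AMPA receptor auxiliary proteins Cnih2 and Cnih3, the kainate receptor auxiliary proteins Neto1 and Neto2, and the scaffolds Dlg2, Dlg3 and Dlg4. The members were chosen by symbol, by a rule that does not use their values, though with earlier results of these data known. All 31 were found among 43346 gene rows. The study measured total RNA of the neural tube of B6NCrl mice at embryonic day 14.5, in 1 group of 2 libraries. Replicate 1 came from pup 1 of pregnant female 1 and replicate 2 from pup 1 of pregnant female 2, with 10 ng of RNA and added spike-in RNA each, and no genotype or treatment is labelled. Each library is labelled as a single neural tube, although its sex label names both sexes pooled.

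Glutamate is the main excitatory transmitter of the central nervous system. Ionotropic receptors are ion channels assembled from subunits: AMPA receptors carry most fast excitation, NMDA receptors admit calcium and need a co-agonist, and kainate receptors act on both sides of the synapse. Metabotropic receptors signal through G proteins. Auxiliary proteins change the trafficking and gating of the channels, and membrane-associated guanylate kinases hold receptors at the postsynaptic density. In the embryonic spinal cord many of these genes are transcribed before synapses mature.

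With 1 group there is no contrast between conditions, and with 2 libraries no exact test can reach a p of 0.05. The levels given are deposited TPM, a value scaled by transcript length and library that can be compared between genes. They are given for each library or as mean ± SD (n = 2). The authors' credibility bounds, whose level is not stated, cover the estimate within a library. Where the ratio of replicate 2 to replicate 1 is given, it describes these 2 libraries and has no p-value.

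Total expected counts were 33360108 in replicate 1 and 26025302 in replicate 2. The libraries differed in markers of tissue around the neural tube. The summed TPM of 6 markers of meninges and fibroblasts was 44.2 in replicate 1 and 978 in replicate 2, and that of 10 sensory ganglion markers was 111 and 493. The 6 neuron markers summed to 3109 and 3038 TPM. The labelled tissue was checked with 6 trunk Hox genes, all at or over 1 TPM in both libraries, and 6 forebrain genes, none of which reached 1 TPM in either library, Emx2 being at 0 counts in both.

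Of the 31 genes, 28 reached 1 TPM in both libraries, where 34.7% of all gene rows and 60.8% of protein-coding genes did. The other 3 were Grin2c, Grin3b and Grm6. The median member was at 19.5 TPM in replicate 1 and 12.6 in replicate 2, and the median protein-coding gene was at 4.88 and 5.67. Among protein-coding genes at or over 1 TPM in both libraries, the median was 20.2 and 22.05 TPM. Cnih2 was the highest member and Gria2 the next, followed by Grm5, Neto2 and Grin1. The libraries of Cnih2 (351 TPM at the lowest) did not overlap those of Gria2 (227 at the highest), and those of Gria2 (161 at the lowest) did not overlap those of Grm5 (79.9 at the highest). Over the whole order of means, 9 of 30 neighbouring pairs had libraries that did not overlap. The remaining neighbours had ranges that overlapped. Of these, Grm5 and Neto2, Neto2 and Grin1, and Gria1 and Gria4 changed order between the libraries. So did Grm7 and Dlg2, Dlg2 and Grin2b, Grin3a and Grik1, and Cnih3 and Gria3. Gria3 and Grik5, Grid1 and Grm4, and Grik4 and Grm2 also changed order. Others, such as Gria4 and Grik2, kept their order within each library.

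**Figure D1:**
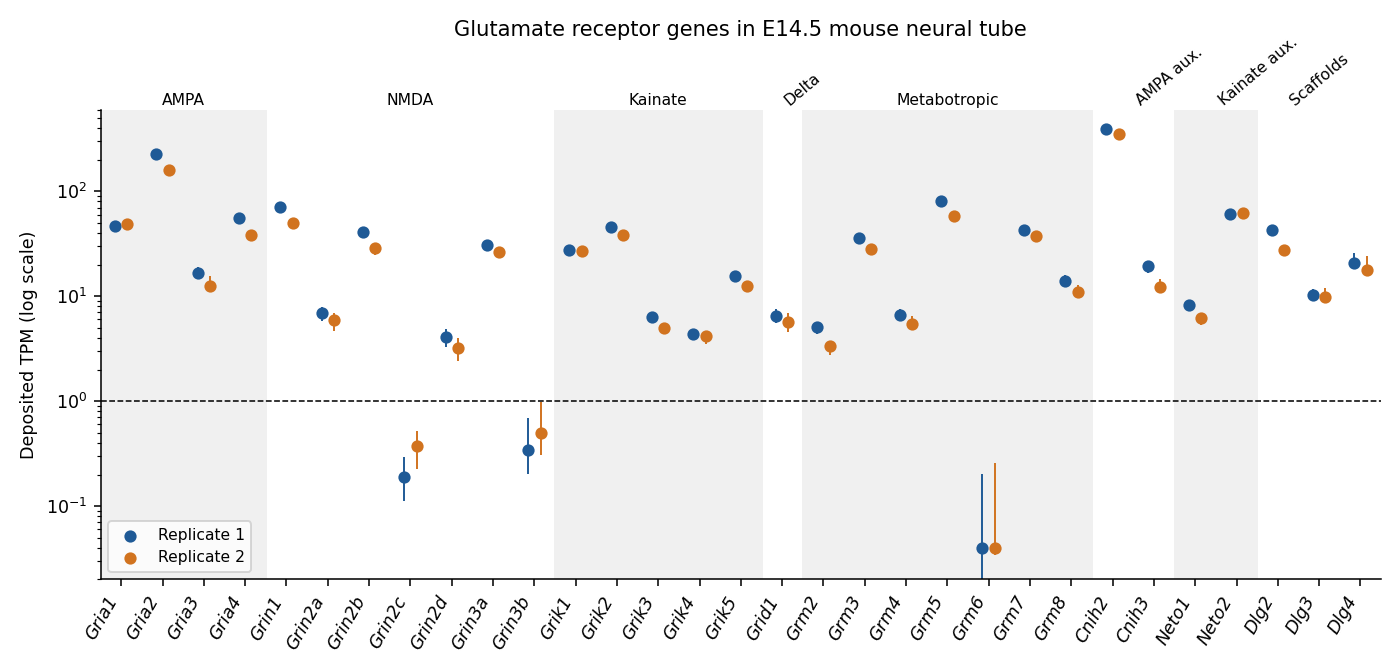
Deposited TPM of each member on a log axis, by library (points) with the authors' credibility bounds (vertical lines), grouped by family; the dashed line is 1 TPM. Cnih2 and Gria2 lie above all others, and Grin2c, Grin3b and Grm6 lie below 1 TPM in both libraries.

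AMPA receptors are tetramers of Gria1 to Gria4 products, and each subunit exists in a flip and a flop form. The forms come from mutually exclusive exons of 115 bases next to the last transmembrane segment, and they differ in how fast the channel desensitises. The exon pairs of the 4 genes are shown because the share of each form is measured below. They are taken from GENCODE release 21 transcripts (GRCm38), 5' to 3' on the gene's strand. Capitals mark the bases that differ between the flip and flop exon of the same gene. The exons lie at chr11:57310608-57310722 (flip) and chr11:57309769-57309883 (flop) for Gria1 on the plus strand, and at chr3:80690404-80690518 and chr3:80691320-80691434 for Gria2 on the minus strand. They lie at chrX:41669501-41669615 and chrX:41654810-41654924 for Gria3 on the plus strand, and at chr9:4427030-4427144 and chr9:4432773-4432887 for Gria4 on the minus strand. All are coding exons.
Gria1 flip: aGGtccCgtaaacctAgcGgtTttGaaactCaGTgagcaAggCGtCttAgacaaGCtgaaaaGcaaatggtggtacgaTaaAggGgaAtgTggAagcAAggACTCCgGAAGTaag
Gria1 flop: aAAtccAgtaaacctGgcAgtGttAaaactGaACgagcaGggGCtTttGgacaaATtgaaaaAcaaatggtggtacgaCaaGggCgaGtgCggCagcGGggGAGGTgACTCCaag
Gria2 flip: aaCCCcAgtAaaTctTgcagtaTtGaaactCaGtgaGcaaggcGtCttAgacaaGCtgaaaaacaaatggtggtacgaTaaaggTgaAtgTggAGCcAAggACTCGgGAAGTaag
Gria2 flop: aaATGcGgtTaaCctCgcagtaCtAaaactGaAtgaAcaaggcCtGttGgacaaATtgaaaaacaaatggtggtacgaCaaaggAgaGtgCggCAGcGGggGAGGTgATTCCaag
Gria3 flip: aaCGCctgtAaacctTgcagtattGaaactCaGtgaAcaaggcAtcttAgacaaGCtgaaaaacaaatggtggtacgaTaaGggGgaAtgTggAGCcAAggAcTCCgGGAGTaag
Gria3 flop: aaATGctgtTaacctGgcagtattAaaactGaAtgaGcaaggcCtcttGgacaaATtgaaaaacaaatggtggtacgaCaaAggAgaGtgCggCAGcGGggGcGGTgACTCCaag
Gria4 flip: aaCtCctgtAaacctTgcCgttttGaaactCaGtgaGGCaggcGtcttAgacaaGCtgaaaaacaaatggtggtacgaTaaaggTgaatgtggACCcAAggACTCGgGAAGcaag
Gria4 flop: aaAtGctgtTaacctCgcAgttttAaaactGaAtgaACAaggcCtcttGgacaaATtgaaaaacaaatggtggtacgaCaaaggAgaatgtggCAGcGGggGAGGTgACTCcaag

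Within a gene the exons differed at 36 bases in Gria1 and Gria2, 32 in Gria3 and 31 in Gria4. Between genes, exons of the same form were more alike: the flip exons shared 87.8% to 92.2% of bases and the flop exons 87.8% to 94.8%, against 68.7% to 73.0% between flip and flop of one gene. The last bases before the common ending of each pair carry a dense run of these differences. In the flop exon that run holds the glycine codons by which the forms were told apart.

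Gria2, whose edited product makes AMPA receptors nearly impermeable to calcium, was the leading AMPA subunit. It was at 227 TPM in replicate 1 and 161 in replicate 2. Gria2 (chr3:80681450-80802835, minus strand) made up 65.7% and 61.6% of the AMPA subunits' summed TPM. Gria1, which drives activity-dependent receptor insertion in mature synapses, was at 46.6 and 49.3 TPM. Gria4, a subunit prominent early in development, was at 55.4 and 38.6 TPM. Gria1 and Gria4 overlapped between libraries and neither ranked above the other. Gria3 was the lowest at 16.5 and 12.5 TPM, with 4.77% and 4.79% of the family. Replicate 1 had the higher TPM for 3 of the 4 subunits and replicate 2 for Gria1, but all 4 were higher in replicate 2 under spike-in scaling.

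**Figure D2:**
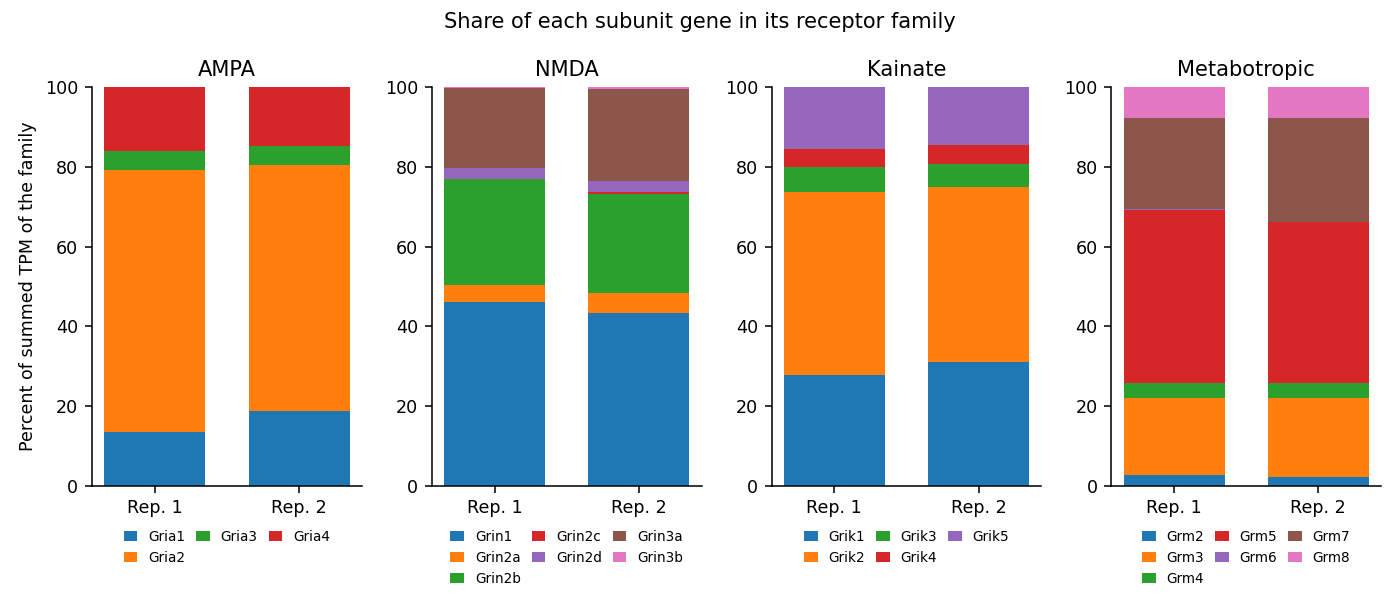
Percent of the summed TPM of each ionotropic or metabotropic family taken by each of its genes, with 1 bar per library. Gria2, Grin1, Grik2 and Grm5 take the largest share of their families in both libraries.

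Flip transcripts had the higher TPM in all 4 AMPA genes in both libraries. For Gria1 the flip form took 63.5% of flip and flop TPM in replicate 1 and 67.2% in replicate 2. Its flip model Gria1-201 was at 28.6 TPM (bounds 25.3 to 30.3) and 29.8 (25.7 to 31.4), and its flop model Gria1-202 at 16.5 (13.4 to 18.3) and 14.6 (10.96 to 16.7). The bounds of the Gria1 forms did not overlap in either library, and the models are of similar length, 5546 and 5399 bases. For Gria4 the flip share was 57.2% and 65.4%. The bounds of Gria4-202 (flip, 7.82 to 12.9 TPM in replicate 1) and Gria4-201 (flop, 5.95 to 10.96) overlapped, so the forms of Gria4 were not told apart in level.

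For Gria2 the flip share was 79.7% and 82.0%, from 72.3 and 63.7 TPM of Gria2-202 (flip) against 18.4 and 14.0 of Gria2-201 (flop). The Gria2 models also differ outside the exon: Gria2-201 is 10371 bases long and Gria2-202 is 4026, so the split is not one of the exon alone. For Gria3 the flip share was 86.4% in replicate 1 and 100% in replicate 2, where the flop models were listed at 0. The Gria3 flop models reached only 1.75 TPM in replicate 1, and the upper bound of Gria3-202 was 0.763 TPM in replicate 2. Gria3 thus had too little flop signal for a ranking of its share against those of the other genes.

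**Figure D3:**
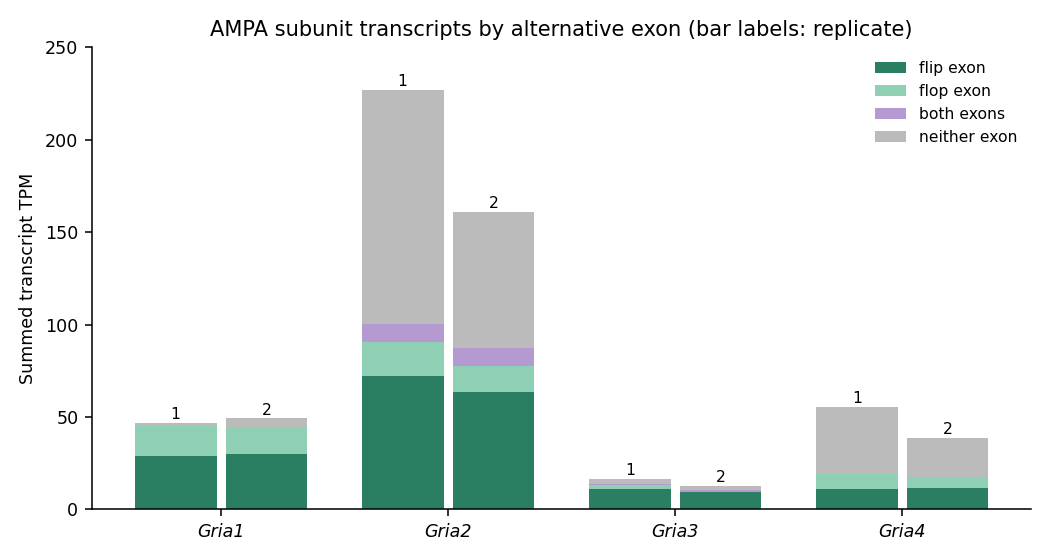
Summed TPM of AMPA subunit transcripts that hold the flip exon, the flop exon, both or neither, with 1 bar per library (bar label). The flip part is larger than the flop part in all 8 bars, and models with neither exon take more than the rest in Gria2 of replicate 1 and in Gria4 of both libraries.

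Much of the Gria2 and Gria4 signal was assigned to models without either exon. The retained-intron model Gria2-206, of 3462 bases, held 36.4% of the gene's TPM in replicate 1 and 38.3% in replicate 2. Coding models of full length (those with at least 90% of the gene's longest coding sequence) held 40.0% and 48.3% of Gria2. A further retained-intron model, Gria2-208, was at 25.3 TPM in replicate 1 and listed at 0 in replicate 2. In Gria4 the model Gria4-203, of 2338 bases with 1299 coding bases, held 65.2% and 55.4% of the gene's TPM. Gria1 differed from both: 96.7% and 90.1% of its TPM was in full-length coding models.

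NMDA receptors pair the obligatory subunit Grin1 with Grin2 or Grin3 subunits. Grin1 (chr2:25291181-25319187, minus strand) was at 70.9 TPM in replicate 1 and 49.7 in replicate 2, which is 46.0% and 43.3% of the NMDA subunits. Grin2b, the main embryonic Grin2 subunit, was at 40.7 and 28.5 TPM. Grin3a, whose product lowers calcium entry and marks immature receptors, was at 30.97 and 26.6 TPM. The ranges of Grin2b and Grin3a overlapped, although Grin2b was the higher within each library. Grin1 exceeded both in each library. Grin1 shares 1307 exonic bases with Grin1os on the opposite strand, which was at 1.05 and 0.83 TPM.

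The other Grin2 genes were low. Grin2a, whose product replaces much of Grin2b after birth, was at 6.86 and 5.88 TPM. Grin2d, a subunit with slow kinetics, was at 4.06 and 3.20 TPM. Grin2c, known from cerebellar granule cells, was at 0.19 and 0.37 TPM, from 16 and 23 counts. Grin2b made up 78.5% and 75.1% of the TPM of the 4 Grin2 genes. Grin3b, a subunit known from motor neurons, was at 0.34 and 0.50 TPM. Grin3b shares 1059 exonic bases with Tmem259 on the opposite strand, which was at 16.6 and 15.6 TPM, and the strand setting of the counting is not given in the sources used here, so reads of Grin3b and Tmem259 cannot be told apart. Replicate 1 had the higher TPM for the 5 NMDA subunits over 1 TPM, an order that spike-in scaling kept for Grin1 and Grin2b and turned for Grin2a, Grin2d and Grin3a.

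Alternative exons of Grin1 set the receptor's response to protons and polyamines (the N1 cassette) and its retention and anchoring (the C1 cassette). Both cassettes are shown because the share of transcripts with each is given next. They are coding exons of the minus strand, N1 of 63 bases at chr2:25311343-25311405 and C1 of 111 bases at chr2:25294438-25294548 (GRCm38, GENCODE release 21), with no capitals.
Grin1 N1: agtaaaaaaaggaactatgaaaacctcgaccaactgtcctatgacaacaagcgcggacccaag
Grin1 C1: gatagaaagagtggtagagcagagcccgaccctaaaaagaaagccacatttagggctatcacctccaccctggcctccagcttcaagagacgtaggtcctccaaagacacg

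Coding models with C1 held 14.9% of Grin1 coding TPM in replicate 1 and 14.3% in replicate 2. Those with N1 held 35.2% and 46.6%. The leading model was Grin1-205, which lacks both, at 25.9 TPM (bounds 20.0 to 33.1) and 19.1 (12.0 to 21.2). Next was Grin1-207, which holds N1 and lacks C1, at 14.5 TPM (4.75 to 19.0) and 9.83 (5.18 to 15.3). These bounds are wide, and those of Grin1-205 and Grin1-207 overlapped in replicate 2. Models without C1 exceeded models with C1 in both libraries, at 52.7 against 9.23 TPM and 36.7 against 6.15.

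Grin2a and Grin2b had little TPM in full-length coding models. In Grin2a the retained-intron model Grin2a-203 held 67.4% and 70.7%, which left 2.24 and 1.72 TPM in the full-length coding model Grin2a-202. In Grin2b the model Grin2b-204, of 703 bases, held 41.3% and 38.4%, and Grin2b-205, of 2461 bases, 22.6% and 22.2%. The full-length coding models Grin2b-201 and Grin2b-202 were at 8.47 and 5.11 TPM in replicate 1 and at 5.84 and 4.72 in replicate 2. Because TPM is per length, a short model takes more TPM per read. On full-length coding models Grin2b made up 12.8% of the NMDA subunits on average and Grin1 55.1%, against 25.6% and 44.7% by gene TPM. By expected counts the shares were 34.4% and 31.3%, but counts are not divided by length. The deposited gene length was 6728 and 6914 bases for Grin2b and 3654 and 3551 for Grin1. The order by counts is therefore not an order of levels per length. Grin3a was mostly in the coding model Grin3a-201 (76.6% and 68.8%), with 12.0% and 19.6% in Grin3a-202, whose coding sequence is longer (3405 against 3345 bases).

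Kainate receptors combine Grik1, Grik2 or Grik3 with the high-affinity subunits Grik4 and Grik5. Grik2 was the leading subunit at 45.8 TPM in replicate 1 and 38.1 in replicate 2, with 45.9% and 43.9% of the family. Grik1, known from sensory and dorsal horn neurons, was at 27.8 and 26.9 TPM. The libraries of Grik1 and Grik2 did not overlap. Grik5, the broadly expressed high-affinity subunit, was at 15.5 and 12.6 TPM, below Grik1 in both libraries. Grik3 was at 6.35 and 4.96 TPM, and Grik4 at 4.4 and 4.2. Each of the 5 had the higher TPM in replicate 1, and each was higher in replicate 2 under spike-in scaling.

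Grik1 was spread over coding models: Grik1-201 held 31.4% in replicate 1 and 48.8% in replicate 2, and Grik1-202 held 50.4% and 36.9%. The Grik1 model with the higher TPM therefore differed between the libraries. The bounds of Grik1-201 were 5.52 to 11.4 TPM and 9.16 to 15.8, and those of Grik1-202 were 10.8 to 16.8 and 6.46 to 12.6, so each model overlapped itself across libraries. Grik1-201 and Grik1-202 also overlapped each other within each library, so neither was ranked above the other. Their deposited lengths, 2601 and 2688 bases, are shorter than the 3554 and 3655 bases of release 21. Nearly all TPM of Grik2 was in transcript identifiers that release 21 does not hold (99.5% and 100%), and its forms were not analysed here. Grik5 had 1 model with all of its TPM.

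The delta subunit Grid1, which binds cerebellins at synapses rather than acting as a typical glutamate-gated channel, was at 6.41 and 5.71 TPM. Most of it (89.9% and 84.7%) was in the full-length model Grid1-201. Replicate 1 had the higher Grid1 TPM, and replicate 2 the higher value under spike-in scaling. The cerebellin ligands are given with the other pathway genes.

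Among metabotropic receptors, group I is represented by Grm5, which couples to calcium release. Grm5 (chr7:87584168-88134907, plus strand) led the family at 79.9 TPM in replicate 1 and 57.7 in replicate 2, with 43.5% and 40.3% of its TPM. Group II, which inhibits adenylyl cyclase, comprises Grm2 and Grm3. Grm3, also known from glia, was at 35.6 and 28.3 TPM. Grm2 was at 5.04 and 3.34 TPM, below Grm3 in both libraries.

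Group III receptors are mostly presynaptic. Grm7, found at active zones, was at 42.3 and 37.4 TPM. Grm8 was at 14.0 and 11.01 TPM, and Grm4 at 6.66 and 5.39. The 3 were ranked Grm7, Grm8, Grm4 with no overlap between the libraries. Grm6, the receptor of retinal ON bipolar cells, had 1 and 2 counts, at or under the floor of 3 counts, and no fold is given for it. The 6 metabotropic genes over 1 TPM had the higher TPM in replicate 1, an order that spike-in scaling kept for Grm2 and turned for the other 5.

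Grm3 and Grm4 each had all TPM in 1 model of full coding length. Grm5 was in Grm5-202 (59.04% and 64.2%) and Grm5-201 (34.5% and 26.9%), which have the same coding length of 3513 bases. Grm7-202 was the leading Grm7 model with 68.7% and 71.9%. In Grm8 the model Grm8-204, with 881 coding bases, held 34.5% in replicate 1 and 15.7% in replicate 2.

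Cornichon proteins slow AMPA receptor deactivation and help its export. Cnih2 (chr19:5092868-5098521, minus strand) was at 392 TPM in replicate 1 and 351 in replicate 2, higher than any receptor subunit in either library. Cnih3 was at 19.5 and 12.2 TPM. Cnih2 made up 95.3% and 96.7% of the pair. It stood at percentile 98.5 among protein-coding genes by mean TPM, and Gria2 at 96.5. Both cornichon genes had the higher TPM in replicate 1 and the higher value in replicate 2 under spike-in scaling.

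Neto proteins set the kinetics and synaptic targeting of kainate receptors. Neto2 (chr8:85636588-85700924, minus strand) was at 60.6 and 61.8 TPM, and Neto1 at 8.33 and 6.17. Neto2 made up 87.9% and 90.9% of the pair, and its level exceeded that of every kainate subunit in each library. The model of Neto1 was 3531 bases long in the deposited table and 8352 bases in release 21, and its TPM rests on the shorter one. The libraries of Neto2 differed by less than 2 TPM, and Neto1 was higher in replicate 1 on the TPM scale and higher in replicate 2 under spike-in scaling.

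The scaffolds bind NMDA receptor tails and other receptors at the synapse. Dlg2, which encodes PSD-93, was at 43.1 TPM in replicate 1 and 27.6 in replicate 2. Dlg4, which encodes PSD-95, was at 20.5 and 17.9 TPM, and Dlg3, which encodes SAP102, at 10.2 and 9.74. The 3 were ranked in that order with no overlap between the libraries.

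Few of the Dlg2 transcripts were of a coding type. Models without a coding type held 71.9% of Dlg2 in replicate 1 and 71.1% in replicate 2, led by the retained-intron model Dlg2-209 (29.0% and 25.1%). Its leading coding model, Dlg2-204, was at 6.31 TPM (bounds 0.533 to 8.0) and 5.01 (1.14 to 6.41). Dlg4 was mainly in the coding model Dlg4-201 (55.1% and 50.7%), and 71.6% and 50.6% of Dlg3 was in full-length coding models. In full-length coding models Dlg3 was the highest, at 7.33 and 4.93 TPM, then Dlg2 at 4.28 and 2.45 and Dlg4 at 1.73 and 1.26. This order differs from that of the gene rows, but it rests on the length cut for such models. Dlg2-204 and Dlg4-201 hold 89.0% and 86.6% of the longest coding sequence of their genes and fall just short of the cut. Dlg4-201 alone, at 11.3 TPM in replicate 1 and 9.08 in replicate 2, exceeded the Dlg3 values. The scaffolds were therefore not ranked by their coding transcripts.

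Over the 24 members at or over 5 TPM in both libraries, 23 had most of their TPM in transcripts that release 21 holds. In 4 of the 23 (Gria2, Grin2a, Dlg2 and Dlg3) at least 25% of TPM was in models without a coding type in both libraries, where 18.0% of protein-coding genes at this level had as much. In 7 of the 23 (Gria2, Gria4, Grin2a, Grin2b, Cnih3, Dlg2 and Dlg4) under 50% was in full-length coding models in both, where 18.6% of protein-coding genes had as little. For Cnih3 and Dlg4 this rests on the 90% cut. Their leading coding models, Cnih3-201 (69.4% and 94.65% of TPM) and Dlg4-201 (55.1% and 50.7%), hold 85.6% and 86.6% of the longest coding sequence. All TPM was in full-length coding models for 6 members: Grik5, Grm3, Grm4, Cnih2, Neto1 and Neto2. The percentages of 25, 50 and 99 used in these counts were chosen after seeing the values. The median share in full-length coding models was 84.4% and 84.8% for members and 89.2% and 90.5% for protein-coding genes.

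**Figure D4:**
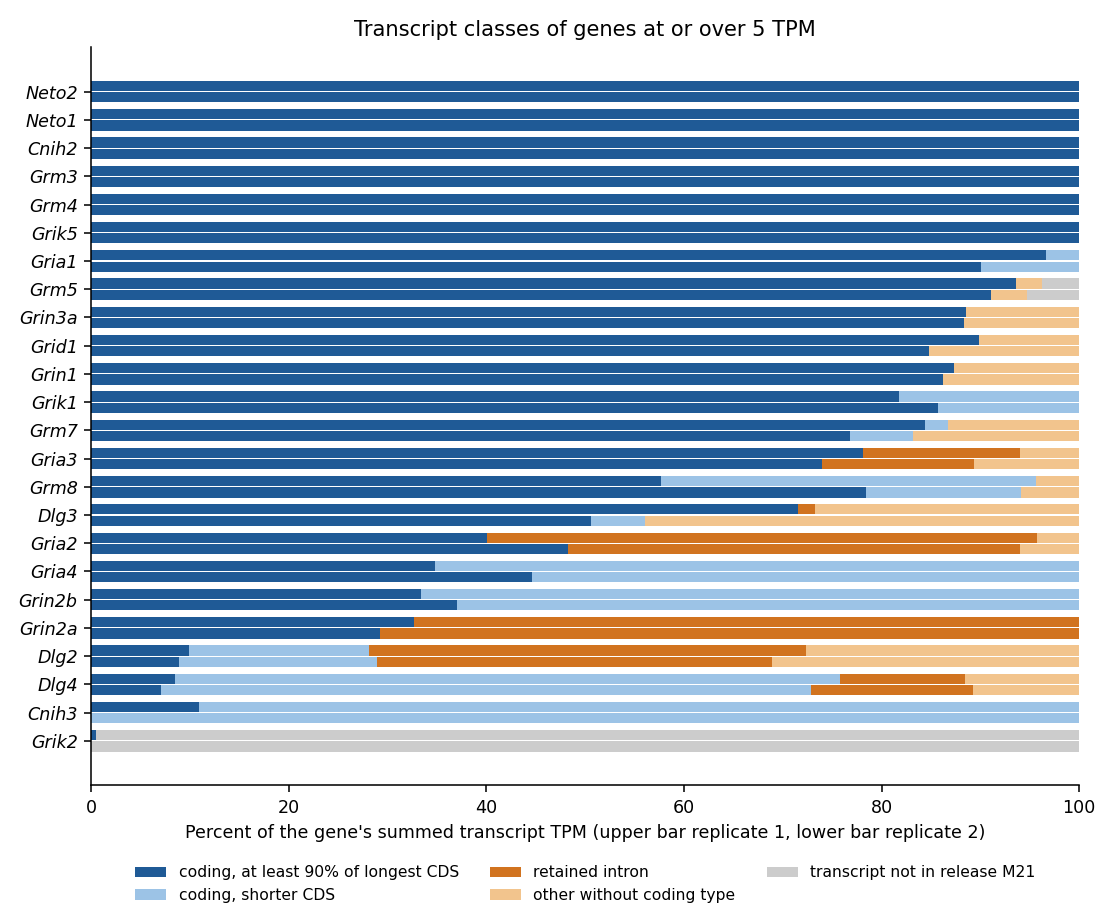
Percent of TPM by transcript class for the 24 members at or over 5 TPM in both libraries (upper bar replicate 1, lower bar replicate 2), ordered by the share of full-length coding models. Receptors with a single model fill the bar, while retained introns take the largest part of Grin2a and Dlg2 in both libraries and of Gria2 in replicate 1.

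By family, the 2 cornichons summed to the highest TPM, 387 ± 33.8 (n = 2). The 4 AMPA subunits summed to 303 ± 59.4 TPM, the 7 metabotropic receptors to 163 ± 28.5, the 7 NMDA subunits to 134 ± 27.8 and the 5 kainate subunits to 93.3 ± 9.16. The 2 Neto genes summed to 68.5 ± 0.679 TPM and the 3 scaffolds to 64.5 ± 13.2. On full-length coding models the AMPA sum was 158 TPM and that of the scaffolds 10.99. The scaffold sum leaves out Dlg2-204 and Dlg4-201, which fall just short of the length cut. The AMPA sum exceeded the NMDA sum in each library, with a log2 ratio of 1.17 in replicate 1 and of 1.19 in replicate 2. On full-length coding models the AMPA excess was 0.64 and 0.87, so it was smaller but of the same sign. With 2 libraries this difference was larger than the spread between libraries and had no test.

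The ratio of replicate 2 to replicate 1 was computed from counts scaled by TMM, which sets most genes to no change, for the 30 members whose counts averaged 10 or more. On that scale 28 members had a ratio below 1, where 50.4% of all genes did, and under spike-in scaling only 4 did (Grin1, Grin2b, Grm2 and Dlg2). The median log2 ratio of members was -0.39 with TMM and 0.15 with spike-in scaling, and that of all genes was 0.00 and 0.54, a shift of 0.54 for every gene. Members were thus lower in replicate 2 relative to other genes, by a median that both scalings give, but not relative to spike-in RNA. All 28 members whose counts averaged 100 or more were below 1 with TMM; 3 of them were lower by 1.5-fold or more, where 3.16% of such genes were, and 0 higher, where 6.93% were.

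By 1.5-fold or more, 3 members were lower in replicate 2 with TMM, where 8.44% of genes were, and 0 with spike-in scaling, where 2.36% were. Dlg2 had a log2 ratio of -0.79 (ratio 0.579, 95% counting interval 0.539 to 0.622), Grm2 of -0.69 (0.622, 0.511 to 0.752) and Grin1 of -0.65 (0.639, 0.609 to 0.670). On deposited TPM the log2 ratio of Grin1 was -0.51, short of 1.5-fold, and that of Cnih3 was -0.68, past it. Grin2c was the only member higher by 1.5-fold with TMM, where 10.8% of genes were, and its interval of 0.923 to 3.70 spans 1. With spike-in scaling 2 members were higher, Grin2c and Grin3b, where 44.1% of genes were. The smallest ratios in size were those of Neto2 (log2 -0.06) and Gria1 (-0.11). The counting interval lay wholly below 1 for 26 members and spanned 1 for Grin2c, Grin3b, Grik4 and Grm8. For 17 members the TPM bounds of the libraries did not overlap, and replicate 1 was higher in all 17, an order that spike-in scaling of the counts kept for the 4 members named above.

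Other cell types moved with this difference. With TMM, 9 of 10 sensory ganglion markers and 6 of 6 markers of meninges and fibroblasts were 1.5-fold or more higher in replicate 2, with median log2 ratios of 4.43 and 5.03. The 5 endothelial markers had a median of 1.22, the 6 microglial markers 0.71, the 6 progenitor markers 0.44 and the 6 neuron markers -0.14. The 6 Schwann cell markers had a median of 1.82 (summed TPM 15.4 and 48.1), and the 5 measured muscle markers -0.93 (39.9 and 20.8). The 6 astrocyte markers had a median of -0.30 (529 and 526), from -2.40 for Gfap and -1.98 for Aqp4 to 1.5 for Gja1. The 5 markers of oligodendrocyte precursors had a median of 0.07 (74.4 and 78.5), with Pdgfra and Sox10 at 0.86. Their part in the members' ratios was not tested. In bulk tissue, fewer cells of a type and less RNA per cell cannot be told apart.

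**Figure D5:**
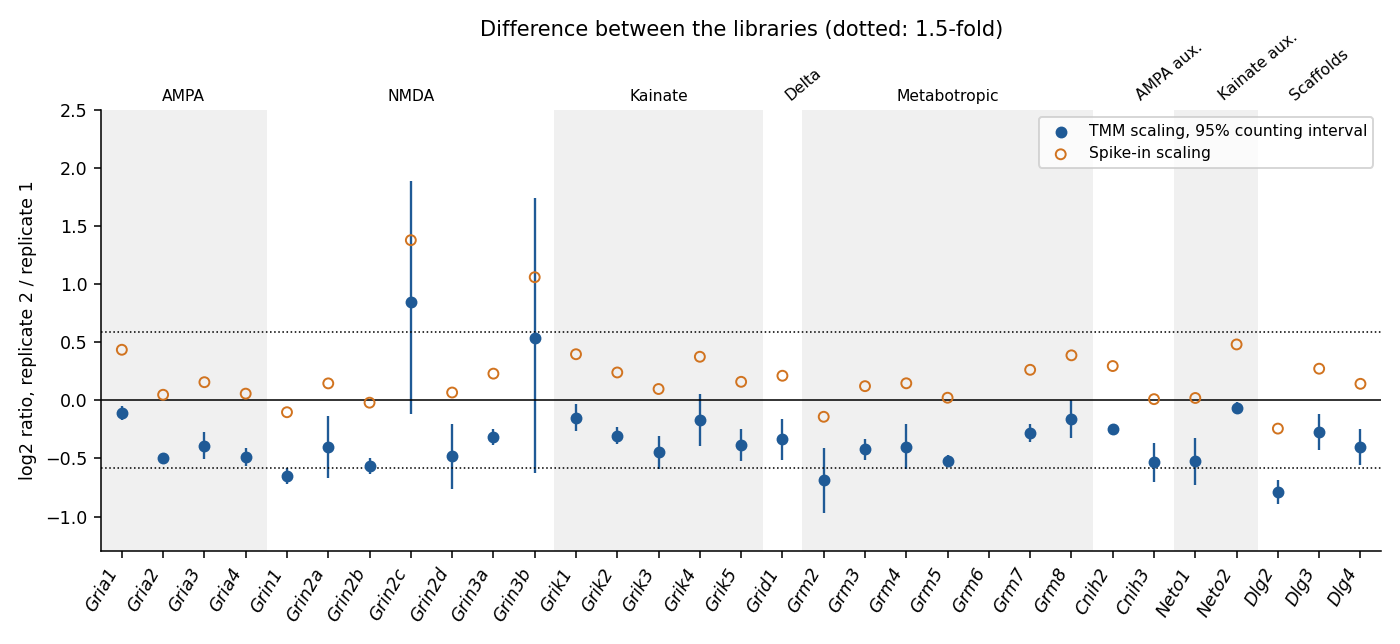
Log2 ratio of replicate 2 to replicate 1 for the 30 members with counts of 10 or more on average, with TMM scaling (filled, with 95% counting intervals) and spike-in scaling (open); dotted lines mark 1.5-fold. With TMM 28 members lie below 0, and with spike-in scaling 26 lie above it.

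Genes that supply, assemble or anchor these receptors were read from 6 lists with 65 genes, of which 61 reached 1 TPM in both libraries. All 18 genes for AMPA receptor assembly, auxiliary and clustering proteins did. The highest were Olfm1, a secreted AMPA receptor partner, at 281 TPM in replicate 1 and 301 in replicate 2, Cacng4, a transmembrane AMPA receptor regulatory protein, at 53.4 and 50.6, and Porcn at 47.2 and 39.9. The regulatory proteins Cacng2 (16.6 and 10.1 TPM) and Cacng3 (28.6 and 20.4) were 1.5-fold or more lower in replicate 2 with TMM, with log2 ratios of -0.81 and -0.77, but -0.27 and -0.23 with spike-in scaling. Cnih2 exceeded each of the 18.

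All 20 postsynaptic density genes reached 1 TPM. They were led by Dlgap4 at 184 and 172 TPM, Nsf, which binds the tail of the Gria2 product, at 174 and 159, and Camk2d at 169 and 130. Camk2a, the forebrain-rich kinase gene, was at 5.54 and 3.26 TPM and Shank1 at 54.4 and 35.6. With TMM both were 1.5-fold or more lower in replicate 2 (log2 ratios of -0.73 and -0.72), and with spike-in scaling they were at -0.18 and -0.18.

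Of 9 genes for glutamate supply and uptake, 7 reached 1 TPM. The vesicular transporter gene Slc17a6, which loads glutamate into vesicles in the spinal cord and brainstem, was at 101 and 91.0 TPM. Its relatives Slc17a7 (listed at 0 and at 0.56) and Slc17a8 (0.29 and 0.11) were under 1 TPM. The highest members were the glial uptake gene Slc1a3 at 162 and 186 TPM and Glul, which turns glutamate into glutamine, at 174 and 153.

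The 3 genes of the family of RNA editing enzymes all reached 1 TPM. Adar was at 27.5 and 29.7 TPM, Adarb1, which edits the Gria2 pore codon, at 15.4 and 12.6, and Adarb2, whose product has no known editing activity, at 16.4 and 13.4. Editing itself was not measured. Each of the 3 was well below Gria2 in level in both libraries.

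Of 11 genes for NMDA receptor co-agonists and trafficking, 10 reached 1 TPM and Dao had 0 counts in both libraries. Lin7c was the highest by mean TPM at 182 and 194, followed by the scaffold kinase gene Cask (49.2 and 45.1) and Srr, which makes the co-agonist D-serine (34.3 and 34.5), which was below Lin7b in replicate 1. Lin7b (41.6 and 21.9 TPM) and the glycine transporter gene Slc6a9 (33.5 and 26.5) were 1.5-fold or more lower in replicate 2 with TMM (log2 ratios of -1.04 and -0.59), and at -0.50 and -0.05 with spike-in scaling. Of the 4 cerebellin genes, Cbln2 was the highest at 92.7 and 137 TPM, then Cbln4 (37.8 and 32.0) and Cbln1 (24.5 and 23.2), while Cbln3 was at 0.18 and 0.75. Each of those 3 exceeded Grid1 in both libraries.

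Over the 6 lists, 49 of the 64 genes whose counts averaged 10 or more had a ratio below 1 with TMM, where 50.4% of all genes did. By 1.5-fold or more, 7 were lower and 1 higher, where 8.44% and 10.8% of all genes were, so the share of lower genes was near that of all genes. The median log2 ratios were -0.21 for AMPA receptor assembly, -0.29 for the postsynaptic density, -0.23 for glutamate supply, -0.29 for editing enzymes, -0.24 for NMDA co-agonists and 0.12 for cerebellins, and all 6 were above 0 with spike-in scaling. The members' own median was -0.39 with TMM.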

How the data were processed

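Total RNA of 2 libraries of E14.5 neural tube was quantified per gene and transcript against mm10 with GENCODE release M4, per the file headers and deposited texts; for aligner, quantifier and strand setting, the sources used here name nothing. The authors deposited expected counts (estimated, not normalized), TPM and FPKM scaled by length and depth, percent of a gene's TPM per transcript, and credibility bounds (score columns), per the file headers. Libraries were quantified separately. Rows naming no gene (3.31% and 2.29% of counts) were left out of library sizes.

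Symbols, transcript classes and sequences came from GENCODE vM21 (GRCm38); 42462 of 43346 gene rows matched. Of 139 transcripts of the members, 131 matched and 98 of these had equal length in both releases. Flop exons were told from flip exons by their run of glycine codons. Rounded expected counts were scaled by TMM (edgeR 4.0.16, prior 0.5); DESeq2 1.42.0 size factors and spike-ins were alternatives. Exact 95% intervals (Clopper-Pearson) and the 3-count floor reflect counting error alone. In simulated data for the ratio of replicate 2 to replicate 1 (17623 genes, 200 changed), the coefficient of variation was set at 0.2. Changed genes were drawn only from those with higher counts. There 86% of 2-fold and 100% of 4-fold changes passed 1.5-fold, as did 20.7% of unchanged genes. These rates depend on those settings and are not measured error rates of the 2 libraries. The members and lists were chosen with earlier results of these data known. Text names all members, and of each pathway list the 3 highest and any with a mean count of at least 100 and a 1.5-fold ratio; genes under 1 TPM were added after their values were seen. Python 3.11.15 was used.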

Additional observations from a re-analysis of the deposited data

How the results depend on the processing

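No paired analysis was possible because there is 1 group. Leaving out either library kept every level and share within 1 SD, as it must with 2 libraries, and the detected count at 28. Spike-in scaling reversed the members' median log2 ratio to 0.15 and left 4 with a ratio below 1, 0 lower and 2 higher by 1.5-fold; the pathway medians became 0.33 (AMPA assembly), 0.26 (postsynaptic density), 0.32 (supply), 0.26 (editing), 0.31 (co-agonists) and 0.66 (cerebellins). The cause was not tested. At 2-fold, 0 were lower and 0 higher; 2 were higher with no count filter (the added gene is Grm6) and 0 at a mean count of at least 100. DESeq2 size factors and a prior of 2 called the same members. Deposited TPM ratios gave the same counts of calls, with Cnih3 (-0.68) in place of Grin1 (-0.51).

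FPKM, another scale, gave sums of 180 (AMPA), 79.8 (NMDA), 55.3 (kainate), 3.59 (delta), 96.9 (metabotropic), 229 (cornichons), 40.5 (Neto) and 38.3 (scaffolds). Full-length coding models, chosen after seeing the data, gave 158 (AMPA), 94.6 (NMDA), 5.30 (delta) and 10.99 (scaffolds) TPM, shares of 53.2% for Gria2 and 55.1% for Grin1, and an AMPA over NMDA log2 of 0.76; the kainate value is not used, since nearly all Grik2 TPM was unmatched. That log2 was 1.16 with posterior mean TPM and 2.71 from medians of log2(TPM + 1). Posterior means gave 66.3 TPM for the Neto genes and 16.7% for the Grin1 C1 cassette. Shares of expected counts, not per length, were 31.3% (Grin1), 48.6% (Grik2), 52.2% (Grm5), 92.3% (Cnih2), 93.1% (Neto2) and 89.2% (Grin2b among Grin2 genes).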
